A study of Homo sapiens with 6 samples.

Results

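Collagens, laminins, nidogens and the other proteins that build the extracellular matrix were followed here together with PXDN, the peroxidasin that ties collagen IV molecules to each other. The list held 49 genes, of which 48 had at least 1 probe set whose annotation named that gene alone, out of 18377 genes so represented on the array. COL17A1, a transmembrane collagen, was not analysed here. The list was selected on measured values of the comparison described below: it was drawn up around PXDN, whose large rise was known, and genes such as SPON1 and FN1 joined it with their values known. All differences of these 48 genes are therefore a description, given without p-values.

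The basement membrane is a thin sheet of matrix under epithelia and around vessels. Laminin trimers of an alpha, a beta and a gamma chain form one network of the sheet, collagen IV forms another, nidogens bridge the networks, and the heparan sulfate proteoglycans perlecan and agrin bind to them. Fibrillar matrix is built differently: collagens of the types I, II, III, V, XI and XXVII pack into fibrils, while fibronectin and the fibrillins form fibres and microfibrils of their own. In the kidney, collagen IV and laminins are the main substance of the glomerular and tubular basement membranes.

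RNA came from HEK293, an established human embryonic kidney line, in the form of a derivative with a single recombination site. The line HEK-BAHD1 carried at that site 1 copy of the BAHD1 cDNA behind the cytomegalovirus immediate-early promoter, which drives strong transcription in most cells, while the isogenic line HEK293-CT (HEK-CT below) carried a control insert, described in the sample labels as β-galactosidase DNA out of frame and in the study's methods as the empty vector. Both lines were stable pools of transfectants kept under Hygromycin B, with 1 pool for each construct, and 3 cultures of each line were hybridised to Affymetrix HuGene ST arrays. The cultures were grown in separate flasks, so the spread between arrays is that between cultures of 1 pool. The study's methods give a later passage for HEK-BAHD1 replicate 2 than for HEK-CT and HEK-BAHD1 replicate 1, and none for HEK-BAHD1 replicate 3. Whether these numbers are those of the arrays is not stated. A later passage in the HEK-BAHD1 line alone cannot be fully told apart from the line. The number of arrays limits the precision.

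BAHD1 encodes a chromatin repressor, and its own transcript served to check the labels. The HEK-CT arrays gave log2 signals of 10.06, 9.81 and 9.93 for BAHD1, and the HEK-BAHD1 arrays gave 6.75, 7.0 and 6.76. It was thus 8.55-fold lower where the labels and the study's methods place the added copy (log2 difference -3.10 ± 0.0925 SE, limma adjusted p = 3.12e-05, n = 3 arrays per group). BAHD1 went against the labels on all 6 arrays. This is also opposite to the study, which describes the transcript and the protein as raised in HEK-BAHD1 cells from other assays, and names genes of chromosome X as lowered there that were higher here under the labels, TIMP1 among them. Every direction below is that of the labels, and it would turn if the labels of the lines were exchanged.

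Over the 21062 probe sets that named a gene, 1430 rose and 1345 fell in the HEK-BAHD1 group. A call required that the limma adjusted p was under 0.05 and that the group medians were more than 0.2 log2 units apart. Higher calls made up 51.5% of these, and 37.0% after each array was centred on its median, which shifted the median of all log2 differences by -0.037. Array medians over all probe sets ranged from 5.46 to 5.56. The named probe sets had medians of 6.4 to 6.46. Of 8 genes typical of HEK293, 5 had a mean above the median of named probe sets, and NEFM (0.77) and NEFL (0.40) were higher and VIM (-0.28) lower by log2 difference, with summed linear levels of 9220 to 9400 on the HEK-CT and 8340 to 9130 on the HEK-BAHD1 arrays. The 6 fibroblast and 5 endothelial markers all lay below that median, with mean log2 signals of 2.96 to 4.71 and 3.87 to 4.55 and none called. Among 4 epithelial markers, CDH1 rose by 0.72 and KRT19 by 0.42 log2 units, while EPCAM (-0.12) and CLDN4 (0.11) were not called. CDH1 and CLDN4 lay below that median. The sum of the 4, mostly EPCAM, was 3010 to 3350 against 3060 to 3320. Of 5 leukocyte markers, LCP1 alone was called, lower by a log2 difference of -0.34, with sums of 2220 to 2350 against 1780 to 1840. LCP1 was also the only 1 of them above the median of named probe sets, and it made up most of these sums. The part of these marker genes in the results below was not tested.

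By that call rule 17 of the 48 matrix genes rose and 5 fell in the HEK-BAHD1 group. For comparison, 6.79% of all probe sets were called higher and 6.39% lower, and since the list was selected on this contrast nothing is read from these shares. The HEK-BAHD1 values lay entirely above the HEK-CT values in 23 genes and entirely below them in 5, against 16.7% and 16.9% of all probe sets. The median log2 difference of the 48 genes was 0.10, against 0.003 for all probe sets. Replicates were close: the median standard deviation within a group was 0.09 log2 units for the matrix genes and 0.09 for all probe sets, and it was lowest for COL4A1 (0.0196) and highest for PXDN (0.22). A lower level of a transcript in such RNA can stand for fewer expressing cells or for less RNA per cell, which cannot be told apart.

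**Figure D1:**
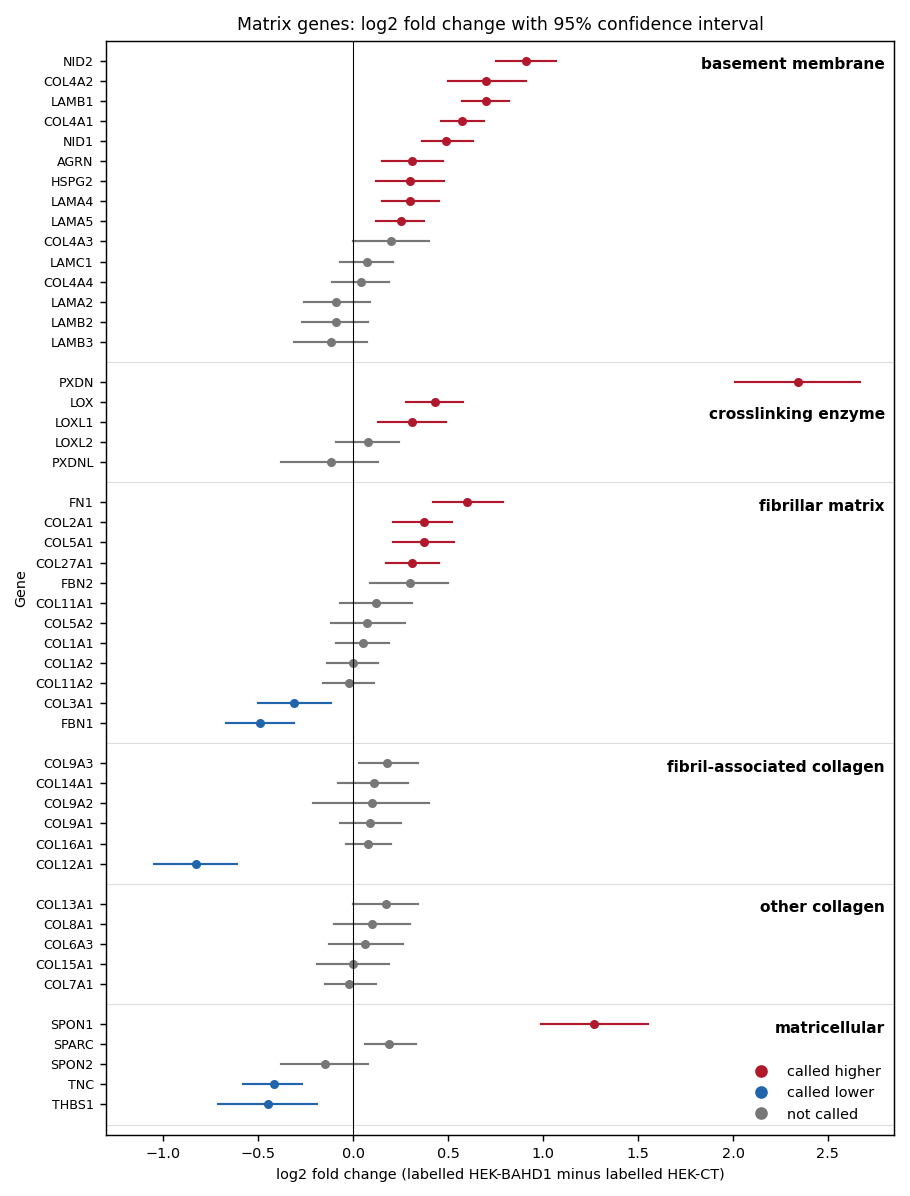
Log2 fold change of each of the 48 matrix genes (x axis, arrays labelled HEK-BAHD1 minus those labelled HEK-CT) by class (y axis), where points are limma estimates from 3 arrays per group and bars are 95% confidence intervals. PXDN at 2.34 stands far to the right, 9 of the 15 basement membrane genes were called higher and none lower, and the fibrillar matrix holds calls in both directions. Of all probe sets, 6.79% were called higher and 6.39% lower.

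PXDN, the heme peroxidase that forms the sulfilimine bonds between collagen IV molecules, showed the largest change of the list. Its log2 signal was 4.95, 5.07 and 4.53 on the HEK-CT arrays and 7.17, 7.34 and 7.06 on the HEK-BAHD1 arrays. The groups were 1.99 log2 units apart at their nearest arrays, and the difference of 2.34 ± 0.141 (SE) stands for 5.06-fold. The HEK-CT signals of PXDN were dim, below the medians of named probe sets. The part of the background in this fold was not tested. The paralog PXDNL had 4.04, 4.39 and 4.08 against 3.97, 3.97 and 4.20, which overlapped (log2 difference -0.12, 95% confidence interval -0.38 to 0.13). PXDNL was among the dimmest 30% of named probe sets, where differences are compressed.

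The lysyl oxidases are known mainly for crosslinking fibrillar collagen and elastin. LOX rose from 7.57, 7.64 and 7.5 to 7.93, 8.06 and 8.01, a log2 difference of 0.43 ± 0.0627. LOXL1, which acts mainly on elastic fibres, had 7.60, 7.54 and 7.41 against 7.71, 7.84 and 7.92, a rise of 0.31 ± 0.0771. Both groups of arrays stood clear of each other in these genes, although for LOXL1 only by a small step, and the LOXL1 call held in 1 of the 6 fits that each left out 1 array. LOXL2, which also acts on collagen IV, was not called, at a log2 difference of 0.08 (interval -0.09 to 0.24).

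The chains COL4A1 and COL4A2 make up the collagen IV found in nearly all basement membranes. Their genes lie head to head on chromosome 13 and are transcribed away from each other out of an interval of 126 bases. COL4A3 and COL4A4, chains of the collagen IV of the mature glomerulus, form a like pair on chromosome 2, 135 bases apart. The intervals are shown because a pair shares its upstream sequence. A link between these sequences and the values below was not tested. Both are the plus strand of GRCh38.p14 as given by RefSeq, with CCAAT and GGGCGG, the letters read by NF-Y and Sp1, in capitals on either strand.
COL4A1-COL4A2, chr13:110307158-110307283: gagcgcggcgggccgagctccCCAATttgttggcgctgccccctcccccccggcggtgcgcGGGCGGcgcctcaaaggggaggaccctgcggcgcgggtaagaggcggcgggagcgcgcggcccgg
COL4A4-COL4A3, chr2:227164489-227164623: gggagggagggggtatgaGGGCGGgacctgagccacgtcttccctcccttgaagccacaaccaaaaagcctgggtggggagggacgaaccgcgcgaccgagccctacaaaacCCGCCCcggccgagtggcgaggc
The first interval was 80.2% G and C with 20 CpG sites, 1 CCAAT and 1 GGGCGG. The second was 68.1% G and C with 11 CpG sites, had GGGCGG once on each strand and had no CCAAT.

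COL4A1 and COL4A2 rose together. COL4A1 had log2 signals of 6.71, 6.68 and 6.69 on the HEK-CT and 7.24, 7.28 and 7.28 on the HEK-BAHD1 arrays, 1.49-fold higher (0.57 ± 0.0496). COL4A2 had 6.68, 6.43 and 6.76 against 7.35, 7.36 and 7.27, 1.63-fold higher (0.70 ± 0.0891). In each gene all 3 HEK-BAHD1 arrays lay above all 3 HEK-CT arrays, and each call held with any 1 array left out. COL4A3 had 4.69, 4.42 and 4.69 against 4.74, 4.83 and 4.83, which did not overlap but were not called (0.20 ± 0.0839, interval 0.00 to 0.40). COL4A4 had 4.93, 4.87 and 4.92 against 4.96, 5.04 and 4.84, which overlapped (0.04, interval -0.11 to 0.19). COL4A3 and COL4A4 were dim, below the median of named probe sets, and COL4A3 was among the dimmest 30%. Differences are compressed near the background, and the part of this in their small values was not tested.

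Of the 7 laminin chains, 3 were higher (42.9%, against 6.79% of all probe sets), 4 were not called and none was lower (against 6.39%). Their median log2 difference was 0.07, and nothing is read from these shares. LAMB1, a beta chain of many laminins, showed the largest rise, from 9.01, 9.0 and 8.98 to 9.65, 9.76 and 9.67, or 1.62-fold (0.70 ± 0.0545). LAMC1, the gamma chain that joins most trimers, had 9.81, 9.70 and 9.75 against 9.79, 9.90 and 9.78. The LAMC1 groups overlapped at a log2 difference of 0.07, with an interval of -0.07 to 0.21. That of LAMB1 was 0.57 to 0.82, and the chains were not tested against each other.

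The alpha chains give a laminin its tissue type. LAMA4, typical of vessels and muscle, had 8.35, 8.33 and 8.31 against 8.67, 8.70 and 8.52 (0.30 ± 0.0634). LAMA5, the widespread epithelial alpha chain, had 6.5, 6.45 and 6.51 against 6.69, 6.79 and 6.72 (0.25 ± 0.0545). Both rose without overlap, but the call of LAMA5 was lost with any 1 array left out and that of LAMA4 held in 1 of 6 such fits. LAMA2, the muscle alpha chain, was not called at -0.09, nor were the beta chains LAMB2 of the glomerulus and LAMB3 of the skin at -0.09 and -0.12, and the groups overlapped in each. LAMA2 was among the dimmest 30% of named probe sets.

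Both nidogens, which link the laminin network to collagen IV, were higher. NID1 had 8.54, 8.4 and 8.47 against 8.94, 8.97 and 8.98, a 1.41-fold rise (0.49 ± 0.0571). NID2 had 6.25, 6.19 and 6.15 against 7.04, 7.23 and 7.06, a 1.88-fold rise (0.91 ± 0.0684) and the largest of the 15 basement membrane genes. The nidogen groups were far apart on every array and kept their calls with any 1 array left out.

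The proteoglycans moved less. HSPG2, which encodes perlecan, had 5.59, 5.45 and 5.73 against 5.88, 5.87 and 5.93 (0.30 ± 0.077). AGRN, which encodes agrin, had 6.75, 6.52 and 6.57 against 6.92, 6.92 and 6.93 (0.31 ± 0.0699). Neither gene's groups overlapped, and each call held in 1 of the 6 fits that left out 1 array.

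**Figure D2:**
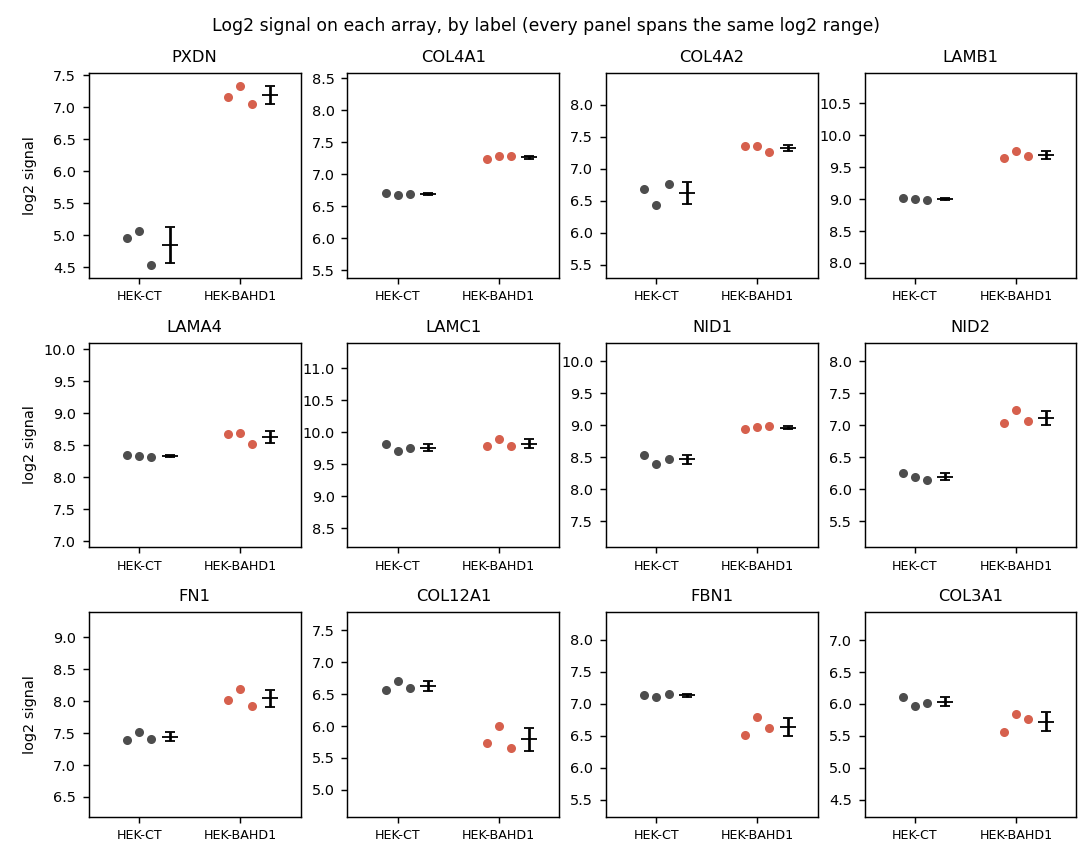
Log2 signal (y axis) of 12 matrix genes on each of the 6 arrays (points, by label on the x axis), with the mean and standard deviation of the 3 arrays of a group beside them, and with the same log2 range in every panel. PXDN, COL4A1, COL4A2, LAMB1, LAMA4, NID1, NID2 and FN1 lie higher on all arrays labelled HEK-BAHD1, COL12A1, FBN1 and COL3A1 lie lower on all of them, and LAMC1 overlaps.

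The fibrillar matrix genes went both ways. Of 12, 4 were higher (33.3%, against 6.79% of all probe sets), 2 lower (16.7%, against 6.39%) and 6 not called. The 9 fibrillar collagens among them split into 3 higher (33.3%), 1 lower (11.1%) and 5 not called. Nothing is read from these shares. The chains of collagen I, the main collagen of bone, skin and tendon, were not called. COL1A1 had 6.64, 6.53 and 6.59 against 6.6, 6.71 and 6.6, and COL1A2 had 5.13, 5.07 and 5.18 against 5.17, 5.08 and 5.12. Both overlapped, with intervals of the log2 difference of -0.09 to 0.19 and -0.14 to 0.13.

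COL2A1, the collagen of cartilage, had 6.61, 6.61 and 6.80 against 7.04, 7.07 and 7.01, higher by 0.37 ± 0.0677. COL5A1, which helps to start collagen I fibrils, had 5.41, 5.27 and 5.49 against 5.79, 5.76 and 5.73, higher by 0.37 ± 0.0682. COL27A1, another cartilage collagen, had 5.76, 5.77 and 5.81 against 6.18, 6.03 and 6.06, higher by 0.31 ± 0.0596. None of these groups overlapped. The COL2A1 and COL5A1 calls held with any 1 array left out and the COL27A1 call was lost without HEK-CT replicate 1.

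COL3A1 and COL5A2 are neighbours on chromosome 2, with 19151 bases between them, and encode partners of collagen I in soft tissue. COL3A1 had 6.11, 5.97 and 6.02 on the HEK-CT arrays against 5.56, 5.84 and 5.77, lower by a log2 difference of -0.31 ± 0.0832, while COL5A2 had 4.36, 4.31 and 4.41 against 4.51, 4.54 and 4.25, not called at 0.07. The COL3A1 groups did not overlap, but the call was lost with any 1 array left out. COL11A1 and COL11A2, cartilage chains that set fibril width, were not called at 0.12 and -0.02. COL5A2 and COL11A1 were among the dimmest 30% of named probe sets. COL11A2 was read from the brightest of its 3 probe sets, and the other probe sets gave -0.13 each, also not called.

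Fibronectin, on which cells assemble much of the other matrix, was the largest rise of this class. FN1 had 7.39, 7.52 and 7.41 against 8.01, 8.19 and 7.93, or 1.52-fold higher (0.60 ± 0.0793). The fibrillins FBN1 and FBN2 form the microfibrils around elastin, FBN2 mainly before birth. FBN1 fell from 7.14, 7.10 and 7.15 to 6.51, 6.79 and 6.62 (-0.49 ± 0.077). FBN2 had 8.56, 8.35 and 8.38 against 8.66, 8.88 and 8.64, not called at 0.30 ± 0.0876, although the groups did not overlap. FN1 and FBN1 kept their calls with any 1 array left out.

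Basement membrane and fibrillar matrix were then set side by side. Their median log2 differences were 0.30 over 15 genes and 0.10 over 12, with ranges of -0.12 to 0.91 and -0.49 to 0.60. Taken on each array against the HEK-CT mean, the basement membrane median was 0.29, 0.30 and 0.23 on the 3 HEK-BAHD1 arrays and the fibrillar median 0.10, 0.15 and 0.10. The 3 HEK-CT arrays lay at 0.05, -0.07 and 0.00 for the basement membrane and at 0.01, -0.06 and 0.04 for the fibrillar matrix. On single arrays the basement membrane median minus the fibrillar one was 0.19, 0.15 and 0.13 in the HEK-BAHD1 group. It was 0.05, -0.01 and -0.04 in the HEK-CT group. The HEK-CT values are small by construction, since the HEK-CT mean of each gene was subtracted. The array values therefore show the spread between arrays and add no support to the difference. The medians of the fitted log2 differences, which rest on the group means of each gene, were 0.20 apart. This distance was 0.13 without the dimmest 30% of probe sets. It was 0.15 when PXDN, COL7A1, COL15A1 and SPARC were counted with the basement membrane. Genes are not replicates and they were selected on this contrast, so no test was made of it. Collagen IV, laminin and collagen XVIII chains measured outside the list were not counted, and none of these was called higher. COL4A5 (-0.26) was called lower. COL4A6 (-0.04), LAMB4 (0.08), LAMA1 (0.13), LAMC3 (0.22) and COL18A1 (0.23) were not called. The fibrillar chains COL5A3 (0.07) and COL24A1 (-0.21), also outside the list, were not called either.

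**Figure D3:**
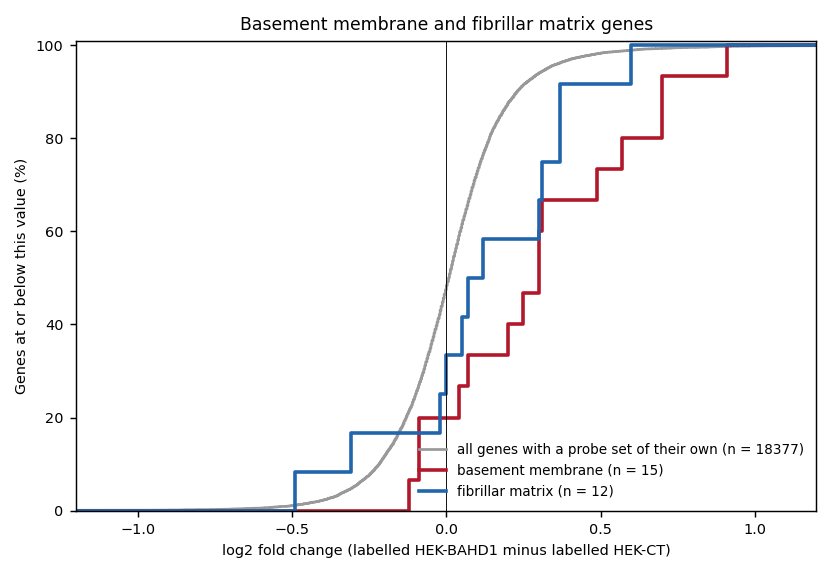
Share of genes (y axis, percent) with a log2 fold change at or below the value on the x axis (arrays labelled HEK-BAHD1 minus HEK-CT), for the 15 basement membrane genes, the 12 fibrillar matrix genes and the 18377 genes with a probe set of their own. The basement membrane line lies to the right of the others over most of its length, with a median of 0.30, and the fibrillar line starts on the left with FBN1 at -0.49 and COL3A1 at -0.31.

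Collagens that decorate fibrils were mostly not called. COL12A1, which coats collagen I fibrils in tendon and ligament, was the exception and the largest fall of the whole list. It had 6.56, 6.71 and 6.6 against 5.73, 6.0 and 5.65, a log2 difference of -0.83 ± 0.0962, without overlap and with its call kept when any 1 array was left out. The other fibril-associated genes were not called. COL9A3, a cartilage chain, had 6.94, 6.83 and 7.0 against 7.03, 7.11 and 7.18 (0.18), and COL9A1, COL9A2, COL14A1 and COL16A1 lay between 0.08 and 0.11.

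None of the remaining 5 collagens was called. COL13A1, a transmembrane collagen, had 5.28, 5.20 and 5.25 against 5.34, 5.56 and 5.34, which did not overlap (0.17). COL6A3 of the beaded filaments was at 0.06, COL8A1 of vessel and cornea at 0.10, COL7A1 of the anchoring fibrils at -0.02 and COL15A1 of the outer basement membrane zone at -0.00, all with overlapping groups. COL6A3, COL8A1 and COL15A1 were among the dimmest 30% of named probe sets. Counted over all types, 5 of the 24 collagen chains were higher (20.8%, against 6.79% of all probe sets), 2 lower (8.33%, against 6.39%) and 17 not called. Their median was 0.09, and nothing is read from these shares.

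Matricellular proteins bind to matrix and cells without building it. SPON1, which encodes the adhesion protein F-spondin, was the second largest rise of the list. It had 5.85, 6.19 and 6.32 against 7.29, 7.42 and 7.46, 2.41-fold higher (1.27 ± 0.118). Its relative SPON2 had 5.72, 5.53 and 5.93 against 5.60, 5.57 and 5.56, which overlapped (-0.15, interval -0.38 to 0.08). SPARC, which binds collagen, had 6.45, 6.36 and 6.38 against 6.66, 6.54 and 6.57, not overlapping and not called (0.19, interval 0.06 to 0.33).

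TNC and THBS1, which encode tenascin C and thrombospondin and loosen the hold of cells on fibronectin, both fell. TNC had 6.56, 6.73 and 6.57 against 6.16, 6.25 and 6.18 (-0.42 ± 0.0656), and its call held with any 1 array left out. THBS1 had 5.64, 5.78 and 5.43 against 5.07, 5.36 and 5.07 (-0.45 ± 0.112). The THBS1 groups did not overlap, but HEK-BAHD1 replicate 2 came close to HEK-CT replicate 3, and the call held in 2 of 6 fits with 1 array left out.

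Promoter sequence was then compared, a property that took no part in the selection. RefSeq windows of 300 bases around the start, 250 of them upstream, were available for 37 of the 49 genes. The median number of CpG sites per window was 24 for these genes, 32 for 14 basement membrane genes, 26 for 7 fibrillar genes and 14 for all 27305 windows, and the G and C content was 67.7%, 72.5%, 68.3% and 58.3%. Both strands were searched for GGGCGG, for CCAAT, for GGAATG, the letters read by the TEAD factors, and for TGACTCA, those read by AP-1, none of which contains another. GGGCGG was found in 26 of 37 windows (70.3%, against 44.6% of all windows) and CCAAT in 12 (32.4%, against 35.7%). TGACTCA was in 0 of the 37 and in 4.92% of all windows.

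GGAATG was found in 5 of the 37 windows (13.5%, against 14% of all). Windows were at hand for 14 higher and 4 lower genes, and GGAATG was in 0 of the 14 and in 3 of the 4. These matches are shown with 9 bases on either side, the match in capitals, because 3 of the 5 belong to genes that fell. Each is written 5′ to 3′ on the strand that reads GGAATG, which is the strand of the gene except for SPARC.
COL12A1, lower, 167 bases before the start, chr6:75206215-75206220: cacgccgaaGGAATGctcgaagta
FBN1, lower, 58 bases before, chr15:48645023-48645028: ttgggcttgGGAATGgggaccgcg
THBS1, lower, 46 bases before, chr15:39581033-39581038: gaatccccaGGAATGcgagcgccc
LAMA2, not called, 167 bases before, chr6:128882971-128882976: gtcaagctaGGAATGatccggtct
SPARC, not called, 17 bases before, chr5:151686927-151686932: aggaccgcgGGAATGtggaggggt
A match of letters is no evidence of a bound factor, and with 4 windows the share among the lower genes is coarse. The windows were split by the calls of the contrast on which the genes were selected. The THBS1 call held in only 2 of 6 fits with 1 array left out. Nothing is read from the split.

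Other genes of the pathway were taken from 4 lists made from general knowledge of the matrix, though with earlier results of these data known. The p-values below are those of single genes in the fit over all probe sets, of which 6.79% were called higher and 6.39% lower. Because earlier results were known, nothing is read from the shares of these 4 lists. Of 38 further matrix chains measured, 8 were higher (21.1%), 1 lower (2.63%) and 29 not called, with a median log2 difference of 0.10. The largest rises were in FBLN5 (1.0, limma adjusted p = 0.000277) and FBLN1 (0.85, adjusted p = 0.00132), fibulins of elastic fibres and basement membranes, in the collagen VI chain COL6A1 (0.90, adjusted p = 0.00121) and in the fibulin relative EFEMP1 (0.63, adjusted p = 0.00308). Of the chains that join COL6A1 in collagen VI, COL6A2 was not called at 0.23 (interval 0.07 to 0.38), although its groups did not overlap. COL6A3, among the dimmest 30% of named probe sets, was not called either (above). The 1 lower call, named after its value had been seen, was COL4A5, a collagen IV chain of the glomerular basement membrane that was not in the list of 49. It had 6.1, 6.07 and 6.21 against 5.8, 5.97 and 5.82, without overlap (-0.26 ± 0.0692, adjusted p = 0.0448). COL4A5 lies on chromosome X, and its adjusted p was close to the threshold. Without HEK-CT replicate 3 the 4 lists held 1 lower call in place of 3. Whether the COL4A5 call held with an array left out is not given here. That the called collagen IV chains did not all move one way therefore rests on COL4A5 alone.

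Of 28 genes that modify, fold or crosslink collagen, 4 were higher (14.3%, against 6.79% of all probe sets) and none lower (against 6.39%), with a median of 0.06. They were PLOD3, a lysyl hydroxylase that also adds sugars to collagen IV (0.49, adjusted p = 0.00308), PCOLCE2, which enhances the trimming of procollagen (0.46, adjusted p = 0.00594), the collagen chaperone FKBP10 (0.36, adjusted p = 0.00976) and the procollagen protease ADAMTS2 (0.33, adjusted p = 0.0464). The other 24 were not called.

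Of 26 cell surface receptors for matrix, 11 were higher (42.3%, against 6.79%), 1 lower (3.85%, against 6.39%) and 14 not called, with a median of 0.18. CD44, the hyaluronan receptor, rose by 1.10 (adjusted p = 0.00103). ITGA5, the alpha chain of the fibronectin receptor, had 7.01, 6.95 and 7.06 against 7.93, 7.92 and 8.0 (0.94, adjusted p = 0.000277), without overlap. ITGA8, an integrin chain of the developing kidney, rose by 0.82 (adjusted p = 0.000376). ITGAV, the alpha chain of the vitronectin receptors, fell by 0.58 ± 0.0618 (adjusted p = 0.00197).

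Of 28 matrix proteases and their inhibitors, 6 were higher (21.4%, against 6.79%), 1 lower (3.57%, against 6.39%) and 21 not called, with a median of 0.02. MMP2, a gelatinase that cleaves collagen IV, rose by 0.92 (adjusted p = 0.0152) and its inhibitor TIMP2 by 0.64 (adjusted p = 0.00248). TIMP1, on chromosome X, rose by 0.41 under the labels (adjusted p = 0.00987). The study gives this gene the other direction. The collagenase MMP13 fell by 0.44 on the log2 scale (adjusted p = 0.0157). Its signals were dim, at 4.25, 4.20 and 4.23 against 3.60, 3.88 and 3.88. Without the dimmest 30% of probe sets the 4 lists held 2 lower calls in place of 3.

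**Figure D4:**
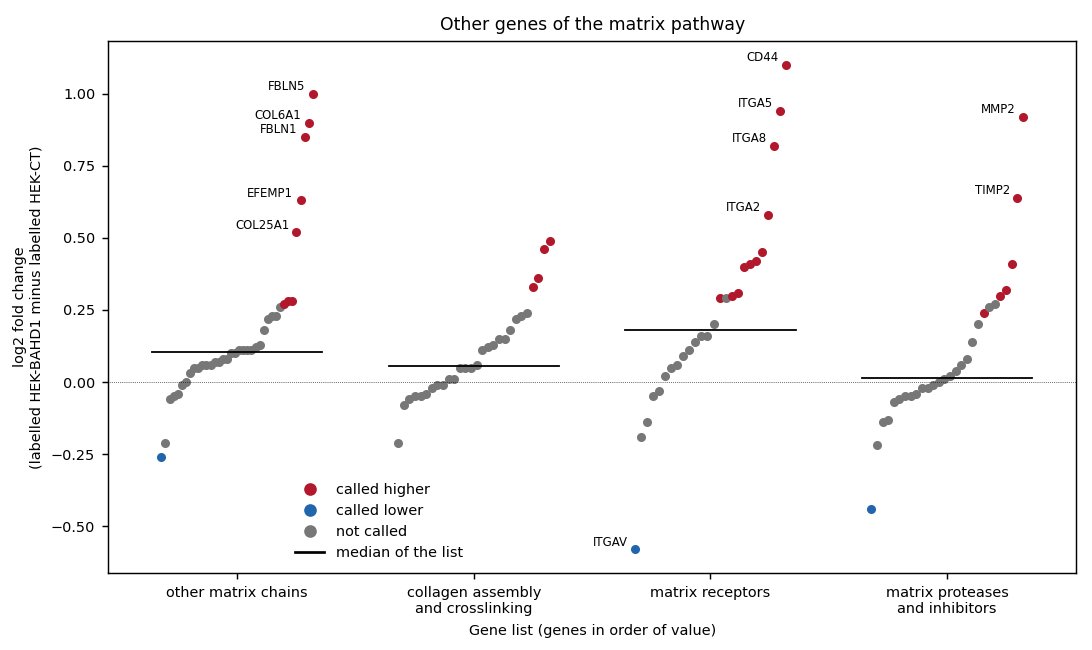
Log2 fold change (y axis, arrays labelled HEK-BAHD1 minus HEK-CT) of every measured gene in 4 lists of the matrix pathway (x axis, genes of a list in order of value), where each point is 1 gene, colour gives the limma call and the line is the median of the list. Receptors have the highest median, 0.18, with CD44 and ITGA5 at the top and ITGAV at the bottom.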

How the data were processed

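RNA of 3 cultures labelled HEK293-CT and 3 labelled HEK-BAHD1 was hybridised to Affymetrix HuGene ST arrays. Log2 expression per probe set, as deposited, was computed by the authors with RMA (version not given in the sources used here), an algorithm of background correction, normalization between arrays and probe summarisation. Small differences are compressed by this step near the background, detection calls are not part of it, and values carry 2 decimals. The paper names another series number, and these arrays were taken as its experiment from their labels.

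Of 28869 probe sets, 19310 named 1 gene, 1752 several and 7807 none. The 21062 with a name were tested with limma 3.58.1 in R 4.3.3 (lmFit, eBayes, Benjamini-Hochberg over all), without a replicate block. Probe sets were called where the adjusted p was under 0.05 and the medians of the groups were over 0.2 apart. The LPE test of the paper was not installed and was rewritten as an alternative (100 intensity bins, 10 degrees of freedom). A gene with several probe sets was read from the brightest. The script was tested on simulated data.

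The genes and lists were chosen with earlier results of these data known. Every gene of the list is named, and values are given array by array for called genes, their partners in a pair and the 6 largest differences not called. Of other lists, up to 4 called genes with the largest change are named. Same-numbered cultures of the lines were checked for shared deviations. Alternatives were other normalizations, filters and tests and leaving out each array. Promoters came from RefSeq windows of GRCh38.p14.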

Additional observations from a re-analysis of the deposited data

How the results depend on the processing

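PXDN, COL2A1, COL4A1, COL4A2, COL5A1, LAMB1, NID1, NID2, FN1, LOX, SPON1, COL12A1, FBN1 and TNC were called with any 1 array left out, which is 14 of 22 called genes. The 17 higher calls of the list became 12 to 13 with 1 array left out and the 5 lower calls 3 to 4, and they were 4 where HEK-CT replicate 3 or HEK-BAHD1 replicate 2 was the array left out and 3 otherwise. With all probe sets tested, also unnamed, 3 were lower, and COL3A1, HSPG2, LOXL1 and THBS1 were lost. The LPE test lost COL3A1, COL5A1, COL27A1, LAMA5 and HSPG2 and gained FBN2. Arrays centred on their medians lost LAMA5 alone, and quantile normalization lost COL27A1, LAMA5 and HSPG2 and gained FBN2. No called gene changed direction under any alternative run. Without the dimmest 30% of probe sets, 9 genes of the list were not tested. They were PXDNL, COL4A3, COL5A2, COL6A3, COL8A1, COL9A1, COL11A1, COL15A1 and LAMA2.

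Over all probe sets, leaving out 1 array gave 806 to 938 higher calls in place of 1430 and 581 to 937 lower calls in place of 1345, the lowest of each without HEK-CT replicate 3, and leaving out HEK-BAHD1 replicate 2 alone kept the lower calls within 1.5 times the full count. Such fits hold fewer arrays, and the lower counts follow in part from that. In the other lists, 29 higher calls became 18 to 23 and 3 lower calls 1 to 3, the fewest without HEK-BAHD1 replicate 2 and without HEK-CT replicate 3, and the LPE test left 1 lower call. These counts over the lists were added after the data had been seen. The difference of the class medians, 0.20, was 0.16 to 0.20 with 1 array left out, 0.17 after quantile normalization, 0.13 without the dimmest 30% of probe sets and 0.15 with PXDN, COL7A1, COL15A1 and SPARC added to the basement membrane. BAHD1 stayed between -3.03 and -3.18. The cause of the other shifts was not tested.

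Same-numbered cultures had correlations of their deviations of -0.08, 0.07 and -0.04, and other-numbered ones of -0.14 to 0.18. With 3 cultures of each line such correlations cannot decide whether the numbers are a pairing. With a replicate block the lower calls over all probe sets were 829, the higher calls 962, and 13 and 4 genes of the list were higher and lower, without COL3A1, LAMA5, HSPG2, AGRN and LOXL1.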
